A study of Mus musculus with 4 samples.

Results

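The mesothelium is the single sheet of flat epithelial cells that covers the liver and the other organs of the body cavity. It secretes a lubricating surface coat, makes its own basement membrane, and carries keratins together with genes of mesenchymal cells. The 7 genes described here, Msln, Upk3b, Upk1b, Gpm6a, Lrrn4, Wt1 and Gpc3, are known as marks of mouse mesothelium, and none is used by that cell type alone. They were taken by name from the 41128 gene entries of a count table, and all 7 were found there. They had been picked because earlier work on these libraries showed them high in Prom1-CD49f+CD45- liver cells, so their levels below are a description and carry no test.

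The libraries came from livers of C57BL/6 mice with experimental alcoholic hepatitis. All the mice received 40% of their calories as a high cholesterol fat diet taken freely and 60% as a liquid diet with alcohol given into the stomach, with a binge each week, so no library stands for a healthy liver. After collagenase digestion, hepatocytes were spun down and CD45+ leukocytes removed with magnetic beads. Cells were then sorted on Prom1 (CD133, a surface protein of bile duct and progenitor cells), CD49f (the laminin-binding integrin alpha 6) and CD45 (a leukocyte surface protein). The Prom1- gate was Prom1-CD49f+CD45-. It is set against Prom1+CD49f+CD45- cells, against cells labelled Prom1+CD49f+CD45+, and against the presorted CD45- cells, the starting material of all gates. Each of the 4 populations had 1 library, made from the pooled RNA of 2 mice, so there is no replicate and no difference below has a replicate check. In such bulk libraries, more cells of a type and more RNA per cell cannot be told apart.

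Summed estimated counts per gene came to 14670414 in the Prom1- gate, 30239681 in the Prom1+CD49f+CD45- library, 23070164 in that labelled Prom1+CD49f+CD45+ and 52294143 in presorted cells. Levels are given as TMM-scaled CPM, that is, counts set relative to library size after a trimmed-mean scaling between libraries (TMM), with the exact 95% Poisson interval of the count in brackets. These intervals cover counting error only. The Prom1 gene stood at 31.1 CPM in the Prom1- gate, 355 in Prom1+CD49f+CD45- cells, 11.4 in the one labelled Prom1+CD49f+CD45+ and 67.1 in presorted cells. Ptprc, the gene of CD45, was at 3.60, 6.33, 14.5 and 21.0 CPM in the same order. The library whose label names Prom1 and CD45 as positive was thus below the presorted library in both genes, and is called the labelled Prom1+CD49f+CD45+ library throughout. It held the highest level of none of the 7 genes, so leaving it out changes no statement on which library was highest for any of the 7. Itga6, the gene of CD49f, was lower in the Prom1- gate than in each other library, although the gate is CD49f+. With TMM scaling, the gate stood at 0.693 times Prom1+CD49f+CD45- cells, 0.399 times the labelled library and 0.458 times presorted cells.

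Chemosensory receptor genes, which liver is not known to use, gave a floor for reading low levels. Of 1707 such genes, 27.5% were detected in the Prom1- gate, 69.0% in each of the 2 Prom1+ libraries, and 13.1% in the presorted library. Percentile 95 of their levels was 0.353 CPM in the Prom1- gate, 0.846 in Prom1+CD49f+CD45-, 1.09 in the labelled Prom1+CD49f+CD45+ library and 0.0450 in the presorted library. All 7 mesothelial genes lay above it in the Prom1-CD49f+CD45- and the presorted libraries. In Prom1+CD49f+CD45- cells 4 lay above it, with Upk1b, Lrrn4 and Wt1 below. In the labelled Prom1+CD49f+CD45+ library only Gpm6a and Gpc3 lay above it. Folds against those 2 libraries therefore divide, for the genes named, by a level no higher than that of receptor genes.

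RefSeq promoter windows on GRCm38.p6, each running from 250 bases before to 50 bases after a start of transcription, were held for 4 of the 7 genes, as 5 windows. The 3 shown are those of Upk3b and Lrrn4, which were high and low in the same libraries, and the upstream start of Gpm6a, the gene that departed from them. Capitals mark the letters GGAATG or their complement CATTCC, the core bound by TEAD factors, which act in the Hippo pathway.
Upk3b (chr5:136038246-136038545, plus strand): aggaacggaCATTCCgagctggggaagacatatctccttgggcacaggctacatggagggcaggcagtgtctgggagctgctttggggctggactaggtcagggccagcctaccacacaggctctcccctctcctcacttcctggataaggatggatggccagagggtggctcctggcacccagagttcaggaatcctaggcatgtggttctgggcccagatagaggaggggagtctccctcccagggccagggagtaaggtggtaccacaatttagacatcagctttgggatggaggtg
Lrrn4 (chr2:132880813-132881112, minus strand): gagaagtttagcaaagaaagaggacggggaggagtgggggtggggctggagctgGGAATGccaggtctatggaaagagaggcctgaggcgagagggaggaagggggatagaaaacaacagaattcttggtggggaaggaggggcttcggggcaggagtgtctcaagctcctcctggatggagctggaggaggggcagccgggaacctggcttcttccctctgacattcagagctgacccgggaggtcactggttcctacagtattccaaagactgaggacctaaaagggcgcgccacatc
Gpm6a (chr8:54779184-54779483, plus strand): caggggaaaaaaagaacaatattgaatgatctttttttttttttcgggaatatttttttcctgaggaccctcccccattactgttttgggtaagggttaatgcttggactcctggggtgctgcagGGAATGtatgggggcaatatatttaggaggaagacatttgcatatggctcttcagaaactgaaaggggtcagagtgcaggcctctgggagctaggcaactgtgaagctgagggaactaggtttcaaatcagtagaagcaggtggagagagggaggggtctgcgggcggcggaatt
Searched on both strands, GGAATG occurred once in each of these 3 windows and in neither the second Gpm6a window nor that of Gpc3. The windows shown are thus exactly those with a match. The Gpm6a window shown lies far upstream of the gene span given below, which begins at 54954843. The second Gpm6a window, 54954478 to 54954777, lies just before that span. Which start of transcription these cells use was not tested. It occurred in 14.7% of 32851 promoter windows of 300 bases. No match to it overlapped a match to the other motifs searched. These were the GATA letters AGATAA (in 11.2% of all windows), the WT1 letters GCGTGGGNG (1.90%), the GC box GGGCGG (35.7%) and the TATA letters TATAAA (13.6%). The GATA and WT1 letters were in none of the 5 windows, the GC box was in those of Gpc3 (4 matches) and of the upstream Gpm6a start (1 match), and the TATA letters were in the second Gpm6a window. The motifs were chosen with the sequences in view, and a match is a description of letters only.

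Msln (ENSMUSG00000063011; chromosome 17, 25748613 to 25754378, minus strand, mm10) encodes mesothelin, a lipid-anchored surface glycoprotein that binds the mucin MUC16. It stood at 115 CPM (109 to 120.4; 1623 counts) in the Prom1-CD49f+CD45- library, 1.55 (1.16 to 2.02; 53 counts) in Prom1+CD49f+CD45-, 1.05 (0.684 to 1.53; 26 counts) in the labelled Prom1+CD49f+CD45+ library and 33.8 (32.1 to 35.5; 1501 counts) in the presorted library. The Prom1- gate was highest, the starting material second, and the 2 Prom1+ libraries had intervals that overlapped each other. Gpc3 (ENSMUSG00000055653; chromosome X, 52272426 to 52613950, minus strand) encodes glypican-3, a heparan sulfate proteoglycan of fetal liver and of liver cancer. It was at 55.6 CPM (51.8 to 59.6) in the Prom1- gate, 11.9 (10.8 to 13.1) in Prom1+CD49f+CD45-, 1.61 (1.15 to 2.19) in the labelled Prom1+CD49f+CD45+ library and 18.0 (16.8 to 19.3) in the presorted library. No intervals overlapped, and Prom1+CD49f+CD45- cells held a clear Gpc3 signal, from 409 counts, where Msln had almost none.

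Upk3b and Upk1b encode uroplakins, membrane proteins first known from the plaques of the bladder lining. Upk3b (ENSMUSG00000042985; chromosome 5, 136038496 to 136046487, plus strand) stood at 112 CPM (106 to 117) in the Prom1- gate, 1.17 (0.834 to 1.59) in Prom1+CD49f+CD45-, 0.846 (0.524 to 1.29) in the labelled Prom1+CD49f+CD45+ library and 24.8 (23.4 to 26.3) in the presorted library. Upk1b (ENSMUSG00000049436; chromosome 16, 38773184 to 38800328, minus strand), a tetraspanin that pairs with a type 3 uroplakin in bladder, stood at 70.7 (66.4 to 75.2), 0.496 (0.289 to 0.794), 0.564 (0.308 to 0.946) and 10.2 (9.26 to 11.2) CPM in the same order. Both were highest in the Prom1- gate and second highest in presorted cells, as Msln was. Their counts in the 2 Prom1+ libraries ran from 14 to 40, and their intervals there overlapped.

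Gpm6a (ENSMUSG00000031517; chromosome 8, 54954843 to 55060871, plus strand) encodes a membrane glycoprotein of neurons that has served as a surface mark of mouse liver mesothelium. It was at 179.8 CPM (173 to 187; 2546 counts) in the Prom1- gate, 217 (212 to 222; 7439 counts) in Prom1+CD49f+CD45-, 10.8 (9.50 to 12.1; 267 counts) in the labelled Prom1+CD49f+CD45+ library and 61.9 (59.6 to 64.3; 2752 counts) in the presorted library. It was the exception among the 7, with its highest level in the Prom1+CD49f+CD45- library. Lrrn4 (ENSMUSG00000043110; chromosome 2, 132868305 to 132880891, minus strand), which encodes a leucine-rich repeat membrane protein of neurons and mesothelium, had 32.3 (29.4 to 35.4), 0.584 (0.356 to 0.901), 0.483 (0.250 to 0.844) and 14.5 (13.4 to 15.7) CPM in the same order. It too was highest in the Prom1- gate and second highest in presorted cells, and its intervals in the 2 Prom1+ libraries overlapped.

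Wt1 (ENSMUSG00000016458; chromosome 2, 105126529 to 105173616, plus strand) encodes the zinc finger transcription factor that marks embryonic and adult mesothelium, and is the scarcest of the 7. It had 35 counts, or 2.47 CPM (1.72 to 3.44), in the Prom1- gate, 2 counts, or 0.0584 (0.00707 to 0.211), in Prom1+CD49f+CD45-, 0 counts in the labelled Prom1+CD49f+CD45+ library and 23 counts, or 0.518 (0.328 to 0.777), in the presorted library. The 0 allows a level of up to 0.121 CPM there, taking 3 counts as the limit. The Prom1- gate was again highest, on few reads.

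**Figure D1:**
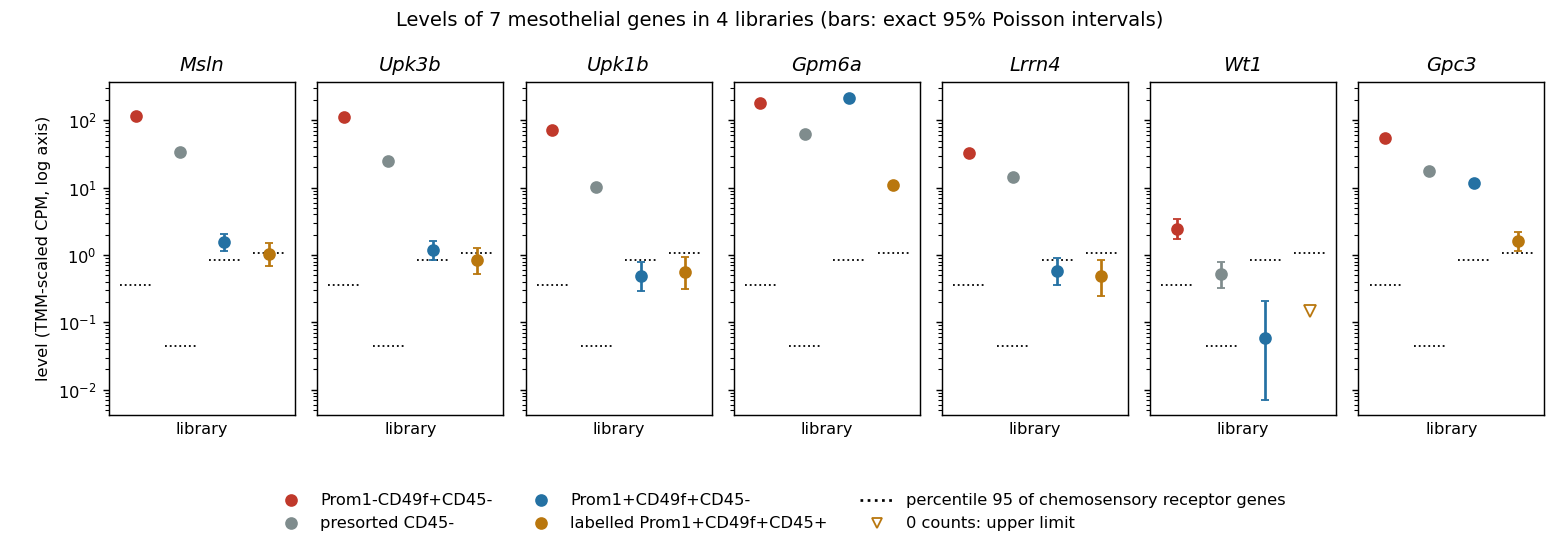
Level of each of the 7 genes (TMM-scaled CPM, log axis) in the Prom1-CD49f+CD45-, presorted CD45-, Prom1+CD49f+CD45- and labelled Prom1+CD49f+CD45+ libraries, with exact 95% Poisson intervals. Dotted lines give percentile 95 of chemosensory receptor genes in that library, and the open triangle is the upper limit (0.149 CPM, exact 95% interval) for Wt1 with 0 counts. Of the 7 genes 6 are highest in the Prom1-CD49f+CD45- library, and Gpm6a is highest in Prom1+CD49f+CD45-.

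In all, 6 of the 7 genes were highest in the Prom1-CD49f+CD45- library, as were 19.6% of the 21640 genes compared. These same 6 were second highest in presorted cells, an order shown by 9.04% of the genes compared. Since the genes were picked on this pattern, nothing is read from either count. The genes compared had at least 10 counts in 1 or more libraries, a filter all 7 passed. Together the 7 genes held 0.0547% of the counts of the Prom1- gate, 0.0264% in Prom1+CD49f+CD45-, 0.00165% in the labelled Prom1+CD49f+CD45+ library and 0.0139% in the presorted library. Much of the Prom1+CD49f+CD45- share was Gpm6a, which gave 7439 of its counts.

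Levels of different genes were compared per kilobase of exon, as TMM-scaled CPM per kb. This holds if reads cover whole transcripts, as in the labels' protocol, and not if they come from transcript ends only, as in the Quant-seq of the series title. Undivided, Upk3b at 112 CPM was above Upk1b at 70.7 CPM in the Prom1- gate, the reverse of their order per kb. In Prom1-CD49f+CD45- cells the order was Gpm6a at 55.9 (53.8 to 58.2), Msln at 37.4 (35.6 to 39.3), Upk1b at 33.8 (31.8 to 36.0), Upk3b at 31.6 (30.1 to 33.2), Gpc3 at 20.7, Lrrn4 at 8.69 and Wt1 at 0.399. The intervals of neighbours Msln and Upk1b overlapped, as did those of Upk1b and Upk3b, while those of the other neighbours did not. The direct ratio of Upk1b to Msln, 0.905 (0.835 to 0.979), still put Upk1b below Msln beyond counting error. Of 21358 genes with an exon length, Gpm6a stood at percentile 94.8 per kb in this library, Msln at 92.4, Upk1b at 91.8 and Upk3b at 91.3. Gpc3 stood at percentile 87.6, Lrrn4 at 77.1 and Wt1 at 33.0. In the presorted library Upk1b came behind 4 of the others, at 4.87 CPM per kb, after Gpm6a at 19.3, Msln at 11.0, Upk3b at 7.03 and Gpc3 at 6.70. Lrrn4, at 3.90 CPM per kb, and Wt1, at 0.0835, followed it there too. The surface and membrane genes thus stood at percentile 77.1 or above in the Prom1- gate, and the transcription factor gene Wt1 did not. Gpm6a led per kb in each of the 4 libraries.

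The ratio of 1 gene to Msln within a library does not depend on how libraries are scaled to each other. Upk3b per kb was 0.844 (0.787 to 0.906) of Msln in the Prom1- gate, 0.655 (0.423 to 1.01) in Prom1+CD49f+CD45-, 0.701 (0.375 to 1.30) in the labelled Prom1+CD49f+CD45+ library and 0.637 (0.589 to 0.689) in the presorted library. Upk1b was 0.905 (0.835 to 0.979) of Msln in Prom1-CD49f+CD45- against 0.442 (0.397 to 0.491) in the presorted library. Lrrn4 went the other way, at 0.232 (0.209 to 0.258) in Prom1-CD49f+CD45- against 0.354 (0.322 to 0.388) in the presorted library. Relative to Msln, the gate thus held more Upk3b and Upk1b and less Lrrn4 than its starting material, beyond counting error. Gpc3 was at 0.552 (0.507 to 0.602) in Prom1-CD49f+CD45- and 0.608 (0.557 to 0.663) in the presorted library, with overlapping intervals. Wt1 was at 0.0107 (0.00740 to 0.0149) in the gate and 0.00758 (0.00479 to 0.0114) in the presorted library, on 35 and 23 counts, too few to tell these apart.

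Gpm6a departed most from these proportions. It was 1.50 times Msln per kb (1.40 to 1.59) in the Prom1- gate, 134 times (102 to 179) in Prom1+CD49f+CD45-, 9.79 times (6.53 to 15.3) in the labelled Prom1+CD49f+CD45+ library and 1.75 times (1.64 to 1.86) in the presorted library. Gpc3 shared this in part, at 8.79 times Msln (6.59 to 11.9) in Prom1+CD49f+CD45- and 1.75 times (1.04 to 2.99) in the labelled Prom1+CD49f+CD45+ library. In Prom1+CD49f+CD45- cells these transcripts were therefore present with Msln, Upk3b and Upk1b near the receptor gene floor. All 12 cholangiocyte (bile duct cell) markers had their highest level in that same library, with Spp1 (osteopontin) at 8188 CPM in Prom1-CD49f+CD45- and 19684 in Prom1+CD49f+CD45-. The part of bile duct cells in the Gpm6a and Gpc3 levels was not tested.

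**Figure D2:**
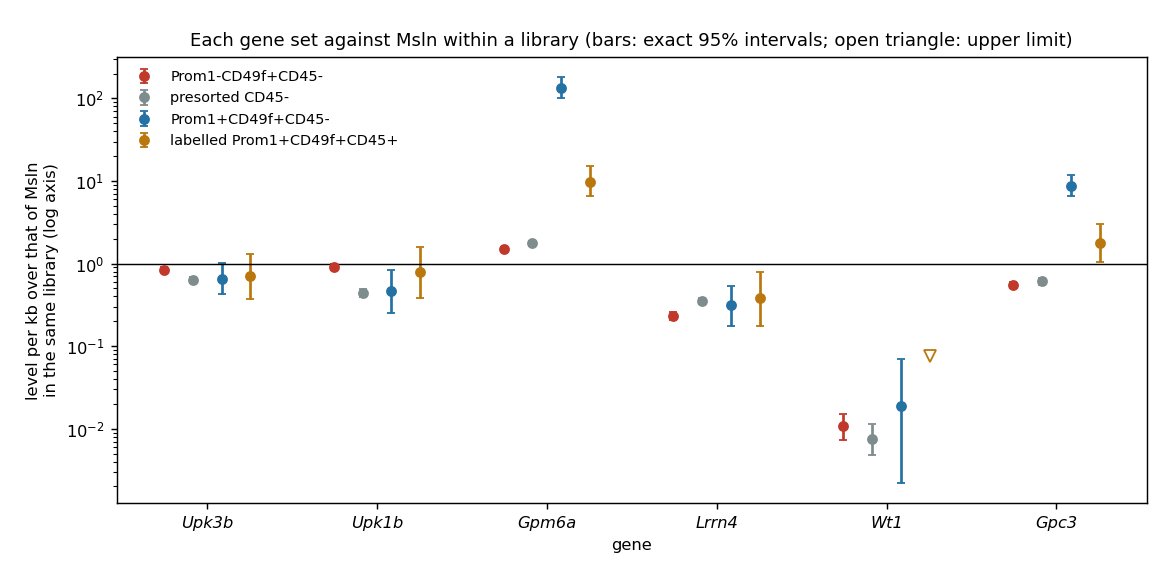
Level per kb of each gene divided by that of Msln in the same library (log axis), with exact 95% intervals, in the 4 libraries. Gpm6a and Gpc3 stand far above Msln in Prom1+CD49f+CD45- (134 and 8.79 times), while the estimates of Upk3b, Upk1b and Lrrn4 lie below Msln in all 4 libraries, and the open triangle is the upper limit for Wt1 with 0 counts.

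Prom1-CD49f+CD45- cells against presorted CD45- cells ask what the gate enriched from its starting material. Ratios are of TMM-scaled counts, with the exact 95% conditional binomial interval, and a call, higher or lower, means that the whole interval lies beyond 2-fold. Upk1b was 6.95-fold higher (6.21 to 7.78), Wt1 4.78-fold (2.74 to 8.47), Upk3b 4.50-fold (4.16 to 4.86) and Msln 3.39-fold (3.16 to 3.64). Gpc3 was 3.08-fold higher (2.79 to 3.41) and Gpm6a 2.90-fold (2.75 to 3.07). These 6 were called, and Lrrn4, at 2.23-fold (1.97 to 2.51), was not. With each of the other scalings, Lrrn4 was at 2.50-fold to 2.92-fold and all 7 were called. With the authors' values and with a length trend removed, Lrrn4 lay in that same range. All 7 then exceeded 2-fold, but on the ratio alone, with no interval. Of all 21640 genes, 9.77% were called higher here and 14.1% lower, against 0 of the 7 lower. The genes were picked as high in the gate among these libraries. Nothing is therefore read from how many of the 7 were called here or in the comparisons below. The median log2 ratio was 1.76 over the 7 genes and -0.05 over all genes compared.

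Against Prom1+CD49f+CD45- cells, which differ in the gate by surface Prom1, the genes split. Upk1b was 143-fold higher (88.6 to 246), Upk3b 95.6-fold (69.9 to 134), Msln 74.1-fold (56.4 to 99.4) and Lrrn4 55.3-fold (35.4 to 91.4) in the Prom1- gate. Wt1 was 42.4-fold higher (10.9 to 364) on 2 counts in the Prom1+ library, and Gpc3 only 4.66-fold (4.13 to 5.26). Gpm6a, at a ratio of 0.829 (0.792 to 0.867), was not called. Here 6 of the 7 were called higher, and 12.7% of all genes, while 15.5% of all genes and none of the 7 were called lower. The median log2 ratio was 5.79 over the 7 genes and -0.38 over all genes. All 10 vascular and all 8 sinusoidal endothelial markers were also called higher here, with median log2 ratios of 6.16 and 5.18. None of the 12 cholangiocyte markers was called higher, and 8 were called lower. Folds of this size were thus not particular to the mesothelial genes.

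Against the labelled Prom1+CD49f+CD45+ library all 7 were called higher and none lower, against 13.0% of all genes higher and 17.7% lower. Upk3b was 132-fold higher (85.9 to 214), Upk1b 125-fold (74.4 to 230.1), Msln 109-fold (74.4 to 168), Lrrn4 66.8-fold (37.9 to 130.2) and Gpc3 34.5-fold (25.1 to 48.7). Gpm6a was 16.7-fold higher (14.7 to 19.0), and Wt1, with its 0 set to 3 counts, at least 20.5-fold, while the exact interval of the ratio reaches down to 15.8-fold. Transcripts of other epithelia were also scarce in that library. In the same comparison 11 of 12 cholangiocyte and 9 of 10 hepatocyte markers were called higher in the Prom1- gate, whereas 7 of 8 sinusoidal endothelial markers were called lower. The 3 comparisons share the Prom1-CD49f+CD45- library, so they are not independent of each other. In all 3, Msln, Upk3b, Upk1b, Wt1 and Gpc3 were called higher, as were 1.92% of all genes.

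**Figure D3:**
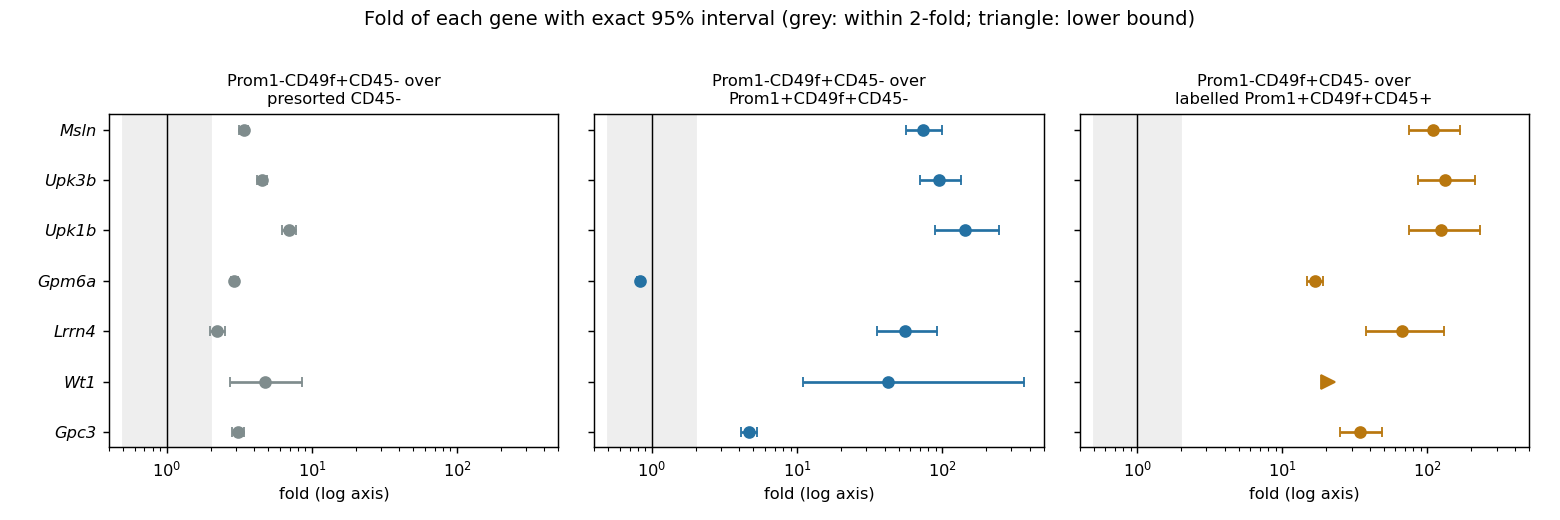
Fold of each gene in Prom1-CD49f+CD45- over the presorted, the Prom1+CD49f+CD45- and the labelled Prom1+CD49f+CD45+ library (log axis), with exact 95% intervals and the range within 2-fold in grey. Every gene is at or above 2.23-fold in the outer panels, and in the middle panel Gpm6a, at 0.829, is the 1 gene below 1.

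A list of 26 other genes reported in mesothelium was then read in the same way. Many of them serve other cell types too. Of these, 1 (Muc16) was not analysed here and Calb2 (calretinin) had 0 counts in all 4 libraries, which left 24. Against presorted cells 16 were called higher, 2 lower (Aldh1a1 and C3) and 6 neither, with a median log2 ratio of 1.71. Of all genes, 9.77% were called higher there and 14.1% lower. Against Prom1+CD49f+CD45- cells 12 were higher and 3 lower (Alcam, C3 and Krt8), with a median of 1.54. The shares of all genes were 12.7% and 15.5%. Against the labelled Prom1+CD49f+CD45+ library all 24 were higher, with a median of 4.56, against 13.0% of all genes. In all 3 comparisons 10 of the 24 were called higher, against 1.92% of all genes. This list was chosen with earlier results of these data known, so nothing is read from these counts.

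Those 10 included secreted regulators. Slpi, which encodes a protease inhibitor of mucosal surfaces, stood at 355 CPM in the Prom1- gate, 3.56 in Prom1+CD49f+CD45-, 2.98 in the labelled Prom1+CD49f+CD45+ library and 48.7 in the presorted library. Rspo1, an amplifier of Wnt signals, stood at 38.3, 0.321, 0.604 and 6.03 CPM in that order. Igfbp6 and Igfbp5, which encode binding proteins of insulin-like growth factors, were 7.52-fold (6.84 to 8.28) and 7.35-fold (7.07 to 7.64) higher than in presorted cells. Membrane genes were among the 10 too. Nkain4, which encodes a partner of the sodium pump, was 10.0-fold higher (8.73 to 11.5) than in presorted cells, the surface glycoprotein gene Cd200 10.8-fold (9.65 to 12.1), and Cldn15, a tight junction claudin, 4.59-fold (4.13 to 5.11). The remaining 3 were the annexin gene Anxa8, 5.13-fold higher (4.09 to 6.44), the prostacyclin synthase gene Ptgis, 4.71-fold (4.26 to 5.21), and Aldh1a2, which makes retinoic acid, 4.39-fold (3.52 to 5.48). Each of the 10 was thus higher than in presorted cells by more than Msln was.

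Other genes of the list were higher in Prom1+CD49f+CD45- cells, as Gpm6a was, or near their level. Krt19 stood at 209 CPM in the Prom1- gate, 301 in Prom1+CD49f+CD45-, 5.76 in the labelled Prom1+CD49f+CD45+ library and 74.1 in the presorted library, and Krt7 at 152, 218, 5.24 and 41.2 CPM in that order. Both keratin genes were called higher than in presorted cells and neither was called against Prom1+CD49f+CD45- cells, where their ratios were 0.693 (0.665 to 0.722) and 0.695 (0.662 to 0.729). The matrix gene Efemp1 had a ratio of 0.591 (0.569 to 0.615) there, and the podoplanin gene Pdpn 1.08 (0.841 to 1.37). Alcam, which encodes an adhesion molecule, differed from Gpm6a in being 5.92-fold lower (5.59 to 6.28) than in Prom1+CD49f+CD45- cells and, at a ratio of 0.917 (0.860 to 0.977), not called against presorted cells. Krt8 was 2.96-fold lower (2.91 to 3.02) than in Prom1+CD49f+CD45- cells, with a ratio to presorted of 1.76 (1.72 to 1.80). The complement gene C3 was 3.56-fold lower (3.50 to 3.62) than in presorted cells, and the retinal dehydrogenase gene Aldh1a1 3.70-fold lower (3.48 to 3.94), and hepatocytes make both. All 10 hepatocyte markers were called lower in that comparison. Against Prom1+CD49f+CD45- cells 7 of the 10 were called higher and 1 lower. There C3 was 2.47-fold lower (2.43 to 2.52), and Aldh1a1, at a ratio of 0.624 (0.584 to 0.667), was not called. The part of hepatocyte RNA in the C3 and Aldh1a1 levels was not tested.

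Transcription factors used by mesothelium differed among themselves. Against presorted cells, of 6 listed with Wt1, only Tbx18 was called higher, at 5.42-fold (2.45 to 12.6) on 19 counts in the Prom1- gate, with Gata4 and Tcf21 lower. Of all genes, 9.77% were called higher in that comparison and 14.1% lower. Tbx18 was at 1.34 CPM in the gate, below its 2.01 CPM in Prom1+CD49f+CD45- and 2.90 CPM in the labelled Prom1+CD49f+CD45+ library. Neither of these differences was called. Bnc1, which encodes a zinc finger factor of mesothelium and stratified epithelium, had its highest level in the Prom1- gate and its second highest in presorted cells, as Wt1 did, and was not called between them. It had 7.42 CPM (105 counts) in the Prom1- gate, 0.204 in Prom1+CD49f+CD45-, 0.282 in the labelled Prom1+CD49f+CD45+ library and 3.58 in the presorted library, a ratio to presorted of 2.07 (1.60 to 2.67). Gata4, which sinusoidal endothelium also uses, stood at 152 CPM in the Prom1- gate, 2.80 in Prom1+CD49f+CD45-, 527 in the labelled Prom1+CD49f+CD45+ library and 423 in the presorted library. Gata6 and Myrf were highest in Prom1+CD49f+CD45- cells, at 170.3 and 119 CPM. Among 10 retinoid genes 7 were compared, and Aldh1a2 was the 1 called higher than in presorted cells, with Aldh1a1 and Rarg, a retinoic acid receptor gene, lower.

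Relatives of the 7 genes were read in the same way. Of 15 relatives found in the table, 9 had enough counts to be compared. None of these was highest in the Prom1- gate, against 19.6% of all genes compared. With 9 genes, nothing is read from that count. The other bladder uroplakins were all but absent. Upk2 and Upk3a had 0 counts in all 4 libraries, which allows up to 0.212 CPM in the Prom1-CD49f+CD45- library. Upk1a had 6 counts in the Prom1- gate, 6 in Prom1+CD49f+CD45-, 2 in the labelled Prom1+CD49f+CD45+ library and 7 in presorted cells, and Upk3bl had 3, 0, 0 and 1. Krt5, a keratin gene of urothelium, had 0 counts in the Prom1- gate, whereas Krt20, of urothelium and gut, was at 2.26 CPM there against 1.19 CPM in presorted cells and was not called. Upk3b and Upk1b were thus the uroplakin genes with a clear level. Of the other glypicans Gpc1 was 7.27-fold lower (6.36 to 8.35) and Gpc4 2.59-fold lower (2.26 to 2.99) than in presorted cells, where Gpc3 was called higher. Lrrn1 and Gpm6b, relatives of Lrrn4 and Gpm6a, were highest in Prom1+CD49f+CD45- cells, at 37.5 and 37.6 CPM, against 4.66 and 7.63 CPM in the Prom1- gate. Mslnl, the relative of Msln, had at most 1 count in any library.

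Some markers of other cells were also high in the same gate. Of 13 portal fibroblast markers, Thy1, Fbln2 and Mfap5 were called higher in all 3 comparisons, as were 1.92% of all genes. Fbln2, which encodes a matrix glycoprotein, stood at 458 CPM in the Prom1- gate, 34.2 in Prom1+CD49f+CD45-, 7.94 in the labelled Prom1+CD49f+CD45+ library and 75.2 in the presorted library. Of the other genes of the list, some were scarce in the gate and some abundant. Mfap4 had 0 counts there and 146 in presorted cells, Dpt 2 and 178, and Col15a1 1 and 35. Dcn had 7501 counts in the gate, with a ratio to presorted of 1.80 (1.75 to 1.85). Cd34 had 4507 counts there, with a ratio of 1.02 (0.985 to 1.05). Of these, Col15a1, Dcn and Cd34 were not called against presorted cells. Against presorted cells 4 of the 13 were called higher, 2 lower and 7 neither, where 9.77% of all genes were higher and 14.1% lower. Summed over the 13 markers, levels were 1996 CPM in the Prom1- gate, 2349.6 in Prom1+CD49f+CD45-, 774 in the labelled Prom1+CD49f+CD45+ library and 1447 in the presorted library. Gas6, a ligand of receptor kinases, gave 2220.2 of the 2349.6 CPM in Prom1+CD49f+CD45- cells. Without it the sums were 1415, 129, 425 and 739 CPM in that order, with the gate highest, and 7 of the 13 markers had their highest level in the gate.

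Of 13 markers of stellate cells, which lie along the sinusoids and share an embryonic source with mesothelium, none was called higher than in presorted cells and 6 were called lower, with a median log2 ratio of -1.09. Against Prom1+CD49f+CD45- cells 8 were called higher and none lower, where the shares of all genes were 12.7% and 15.5%. Ngfr was at 0 counts in the Prom1- gate, and Pdgfrb, a receptor gene of mesenchymal cells, at 12 counts or 0.848 CPM against 28.3 CPM in presorted cells. Ecm1 was at 248 CPM in the gate against 257 CPM in presorted cells, and Rgs5 at 122 against 64.9 CPM. The 13 summed to 456 CPM in the Prom1- gate, 287 in Prom1+CD49f+CD45-, 391 in the labelled Prom1+CD49f+CD45+ library and 704 in the presorted library. Without Ecm1 these sums were 208, 283, 291 and 447 CPM, which puts the gate lowest. Endothelial genes were divided in the gate. Of 7 lymphatic endothelial markers Ccl21a, Mmrn1 and Pdpn were called higher than in presorted cells and Flt4 lower. Of 10 vascular endothelial markers 3 were higher and 1 lower, and of 8 sinusoidal markers none was higher and 7 were lower. Hepatocyte and macrophage markers were lower than in presorted cells in 10 of 10 and 8 of 8. Of all genes compared, 9.77% were called higher and 14.1% lower than in presorted cells. The summed level of the 7 lymphatic markers was 3214 CPM in the Prom1- gate, 406 in Prom1+CD49f+CD45-, 2316 in the labelled Prom1+CD49f+CD45+ library and 1901 in the presorted library. Of the 3214 CPM, Ccl21a, a chemokine gene of lymphatic vessels, gave 2473, and without it the sums were 741, 399.9, 2309 and 1879 CPM, so that the gate then lay below the presorted library. The summed level of the 12 cholangiocyte markers was 9469, 25147, 406 and 4031 CPM in the same order, and without Spp1 1281, 5463, 97.1 and 929 CPM. The Prom1- gate therefore held transcripts of several cell types beside the mesothelial genes, and their part in genes used by more than 1 of these types was not tested.

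**Figure D4:**
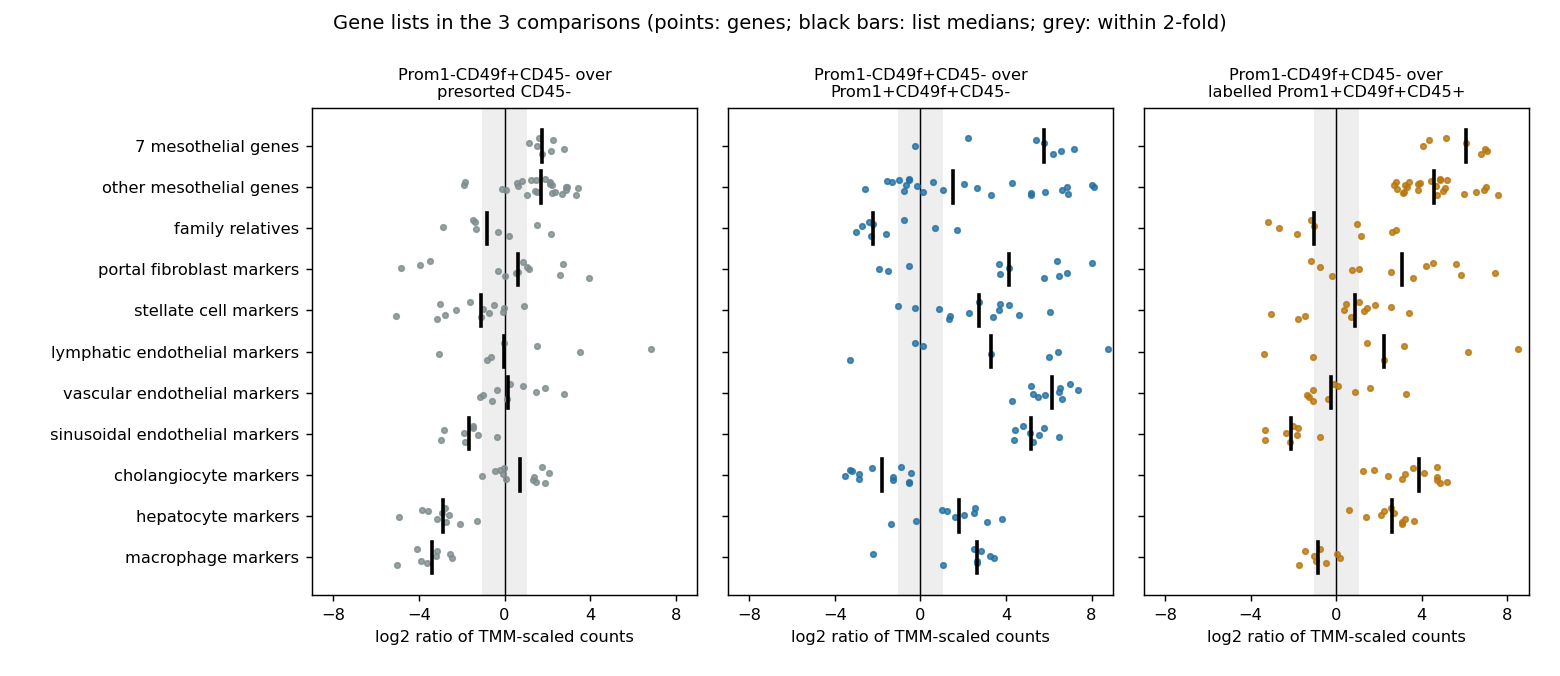
Log2 ratio of TMM-scaled counts for each gene of 11 lists in the 3 comparisons of Prom1-CD49f+CD45- cells, with list medians as black bars and the range within 2-fold in grey. The 7 mesothelial genes and the other mesothelial genes have medians of 1.76 and 1.71 against presorted cells, where the medians of stellate, sinusoidal, hepatocyte and macrophage markers lie below 0.

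The genes nearest the mean pattern of the 7 were sought among 13672 other named genes with at least 100 counts in all. Likeness was the Euclidean distance over the 4 libraries between log2 values (CPM plus 0.5), each gene centred on its own mean. The 10 nearest to the mean of the 7 were Nupr1, Nbl1, Lox, Anxa8, Itm2a, Myl7, Fbln2, H19, Krt14 and Adgrd1, at distances of 0.47 to 1.02. Nupr1, a stress-induced nuclear protein gene, had 57.2 CPM in the Prom1- gate, 5.11 in Prom1+CD49f+CD45-, 2.09 in the labelled Prom1+CD49f+CD45+ library and 18.3 in the presorted library. Nbl1, which encodes an antagonist of bone morphogenetic proteins, had 51.4, 1.43, 0.846 and 12.7 CPM in that order, and Lox, which cross-links collagen, 13.6, 0.554, 0.322 and 5.38. Anxa8 and Fbln2 were also on the lists above. With 4 points, many genes lie close, and the choice depended on the constant added, since 8 of the 10 were shared with 0.1 added and 2 with 2 added.

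Among the 7 themselves, distances from their mean ran from 1.19 for Lrrn4 and 1.38 for Gpc3 to 1.97 for Wt1, and Gpm6a lay farthest, at 3.33. As many as 2394 genes were nearer that mean than Gpm6a, against 20 for Lrrn4, 58 for Msln and 100 for Wt1. The mean included Gpm6a, and the 10 genes named above lay nearer to the mean than any of the 7 did. The gene nearest to Msln alone was Upk3b, at 0.29, followed by Saa3, Slpi and Fbln5, each at 0.79. The gene nearest to Gpm6a alone was Fam181b, at 0.17, followed by Basp1, which encodes a membrane protein of growing axons, also at 0.17. These single-gene neighbours were looked up after the levels had been seen.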

How the data were processed

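The labels' protocols describe total RNA, polyA selection and a stranded kit, with more amplification cycles for low input, and the series title names Quant-seq. Which applies was not settled. Per gene, the authors deposited estimated counts (whole numbers in 50.5% to 60.5% of entries, by library) and CPM with 1 added to every value. TopHat2, Partek 3 and mm10 are named in the submitters' processing notes; for settings, annotation and strand handling, not given in the sources used here, nothing is assumed, and reads of overlapping genes may be shared. Columns were matched through the population numbers of the design text, and the 1 column without a number was taken as the presorted cells.

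Of 41128 identifiers 40254 matched GENCODE vM21, which gave positions and exon lengths. Estimated counts were rounded and scaled with TMM in edgeR 4.0.16 (R 4.3.3). With 1 library per population there was no test, p-value or standard error. Reads amplified without molecular identifiers are not independent molecules, so intervals and floors (3 counts) cover counting error only. Calls were also run on simulated Poisson counts with known folds. That simulation used the same counting model as the intervals, so it cannot show how calls behave with amplified reads. Size factors came from DESeq2 1.42.0. Besides the 7 genes and the sorted proteins, genes named were the most abundant, absent or called members of the lists and the 10 nearest in pattern. Not all are named, and some were chosen after their values were seen. The 7 genes and the lists were chosen with earlier results of these data known.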

Additional observations from a re-analysis of the deposited data

How the results depend on the processing

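The 7 genes kept their direction in every comparison under the 5 alternatives run on each fold (DESeq2 size factors, summed gene counts, upper quartile, the authors' normalized values, and removal of a trend on exon length): of 105 folds 60 stayed within the counting interval, 45 moved outside it and none that was called changed direction. The authors' values have 1 added, which shrinks folds of scarce genes. Over Prom1+CD49f+CD45-, Wt1 ran from 2.98 to 60.0, Lrrn4 from 19.8 to 62.3, Msln from 45.4 to 83.5 and Upk1b from 44.5 to 160.5, and over the labelled library Wt1 ran from 3.11 to 28.6, where the 20.5 given is for TMM-scaled counts. All 7 genes, Lrrn4 included, were called higher than presorted with DESeq2 size factors, summed counts and the upper quartile, against 6 with TMM. With the authors' values and with the length trend removed, all 7 had ratios above 2, judged on the ratio alone with no interval. With a fold threshold of 4 in place of 2, 2 of the 7 genes were called higher than in presorted cells, and over all genes 716 were called against presorted, 1345 against Prom1+CD49f+CD45- and 1097 against labelled Prom1+CD49f+CD45+ cells, instead of 2115, 2758 and 2804. Against presorted cells 3504 were called with the upper quartile, 3942 with the length trend removed (ratio alone, with no interval), and 1390 with at least 50 counts in a library. Calls were higher in 40.9% with TMM there, 51.5% with DESeq2 size factors, 52.5% with summed counts and 65.7% with the upper quartile, whose median log2 ratio over all genes was 0.34 against -0.05. Against Prom1+CD49f+CD45- the share was 45.2% with TMM and 33.1% with summed counts, and against the labelled library 42.2% and 33.3%, or 54.6% with DESeq2 size factors. Log2 ratios fell with exon length, with Spearman correlations of -0.31, -0.31 and -0.39 across genes, which are not independent replicates. Sums over marker lists were also taken without their leading gene, an alternative chosen after seeing the data. Without Gas6 the portal fibroblast sum in the gate was 10.9 times that in Prom1+CD49f+CD45- (0.849 with it). Without Ecm1 the stellate sum was 0.733 times that in Prom1+CD49f+CD45- (1.59 with it) and 0.713 times that in the labelled library (1.17). Without Ccl21a the lymphatic sum was 0.394 times that in presorted cells (1.69) and 0.321 times that in the labelled library (1.39). No paired analysis was possible because each population had 1 library.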
